A study of Mus musculus with 6 samples.

Results

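The Hox genes of the mouse were followed on 6 Agilent SurePrint G3 arrays of hypothalamic RNA. A probe belonged to the set when its gene name was Hoxa, Hoxb, Hoxc or Hoxd followed by a number from 1 to 13, which gave 52 probes for 39 genes among 56605 probes in all. Of these genes, 29 had 1 probe, 7 had 2 and 3 had 3. The mice were male C57BL/6J animals with diet-induced obesity (DIO), kept on a high-fat diet (HFD) with 60% of its energy from fat for 16 weeks from 6 weeks of age, and this diet was common to every mouse on the arrays. The vehicle group (dose 0) and the GSK-J4 group (30 mg kg−1, a prodrug inhibitor of the H3k27 demethylases Kdm6a and Kdm6b) held 3 mice each, with 1 mouse on each array. The series' design text gives sampling at 4 d after exposure, the study's methods describe a longer course of daily intraperitoneal injections of GSK-J4 in DMSO and water with collection at zeitgeber time 6 h, and no lean or untreated mice are among the 6 arrays. Whole hypothalamic tissue was used, so fewer cells of a type and less RNA per cell cannot be told apart.

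Hox genes encode homeodomain transcription factors that give positional identity along the body axis. In mammals they lie in 4 clusters, each read in one direction. Within a cluster the genes are ordered from the anterior ones with low numbers to the posterior ones with high numbers. In the nervous system they are known for patterning the hindbrain and spinal cord. The forebrain, which includes the hypothalamus, is known for lacking most Hox expression. Silent Hox clusters are classic Polycomb targets: Ezh2 in Polycomb repressive complex 2 trimethylates lysine 27 of histone H3 (H3k27me3), Kdm6a and Kdm6b remove that mark, and trithorax and MLL complexes act in the opposite direction to Polycomb.

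Detection was read from the scanner software's flag for a spot well above its local background. By that flag the Hox genes were nearly undetected in both groups: 4, 4 and 3 of the 52 probes were well above background on the vehicle arrays, and 3, 4 and 3 on the GSK-J4 arrays. As shares these were 7.05% of Hox probes on average on the vehicle arrays and 6.41% on the GSK-J4 arrays, beside 63.2% and 58.3% of all 56605 probes. For the Hox share the difference between the groups gave p = 1 (exact permutation test over arrays, two-sided), and the share of all probes was lower on every GSK-J4 array than on any vehicle array (exact p = 0.1, the smallest that 3 against 3 allows). Only 3 Hox probes, 1 of Hoxa9 and 2 of Hoxb3, were well above background on all 6 arrays. The Hoxa7 probe was flagged on 2 arrays and the Hoxa2 probe on 1, and 47 probes were flagged on none, which left 35 of the 39 genes never detected.

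Each probe has 60 bases, and the sequences below identify the Hoxa9 probes and the detected Hoxb3 probes. For Hoxa9, a posterior gene of the Hoxa cluster that also acts in blood progenitors, the detected probe reads across an exon junction upstream of the homeobox, from 52174477 to 52175581 on the minus strand of chromosome 6 in the mm9 build used by the array files. It is printed whole, and the first 30 bases are given for the other Hoxa9 probes, which were not detected on any array.
Hoxa9 A_55_P2746517, well above background on all 6 arrays: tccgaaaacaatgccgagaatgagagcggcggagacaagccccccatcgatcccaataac
Hoxa9 A_66_P124343, on none: tgaaaatgaagaaaatcaacaaggaccgag
Hoxa9 A_66_P116392, on none: cagctgcttaatactcagtacctaattctt

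For Hoxb3, an anterior gene of the Hoxb cluster with known roles in the hindbrain, both detected probes lie on chromosome 11, 1 of them across a junction (96202427 to 96205434) and 1 in a single block (96202860 to 96202919, mm9, plus strand). The first 30 bases of each are given. A further Hoxb3 probe, for which the array file also lists Hoxd3, was never flagged. Whether it separates these paralogs was not tested.
Hoxb3 A_55_P2902313, well above background on all 6 arrays: atattatgtctgcctgttctcccctcgtcg
Hoxb3 A_55_P2721752, well above background on all 6 arrays: ttttaaagtcttggaagatggcctatcctc

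Thus neither gene was detected by every probe: 2 of 3 Hoxb3 probes and 1 of 3 Hoxa9 probes passed. Such mixed detection is common on the array, where 1193 of 2744 gene names with 3 probes and at least 1 passing (43.5%) had a probe that did not pass. The longest run of bases shared by probes of different Hox genes was 12 (Hoxc12 and Hoxd10), and no probe with another gene name shared a run longer than 15 bases with the detected Hoxa9 probe on either strand.

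**Figure D1:**
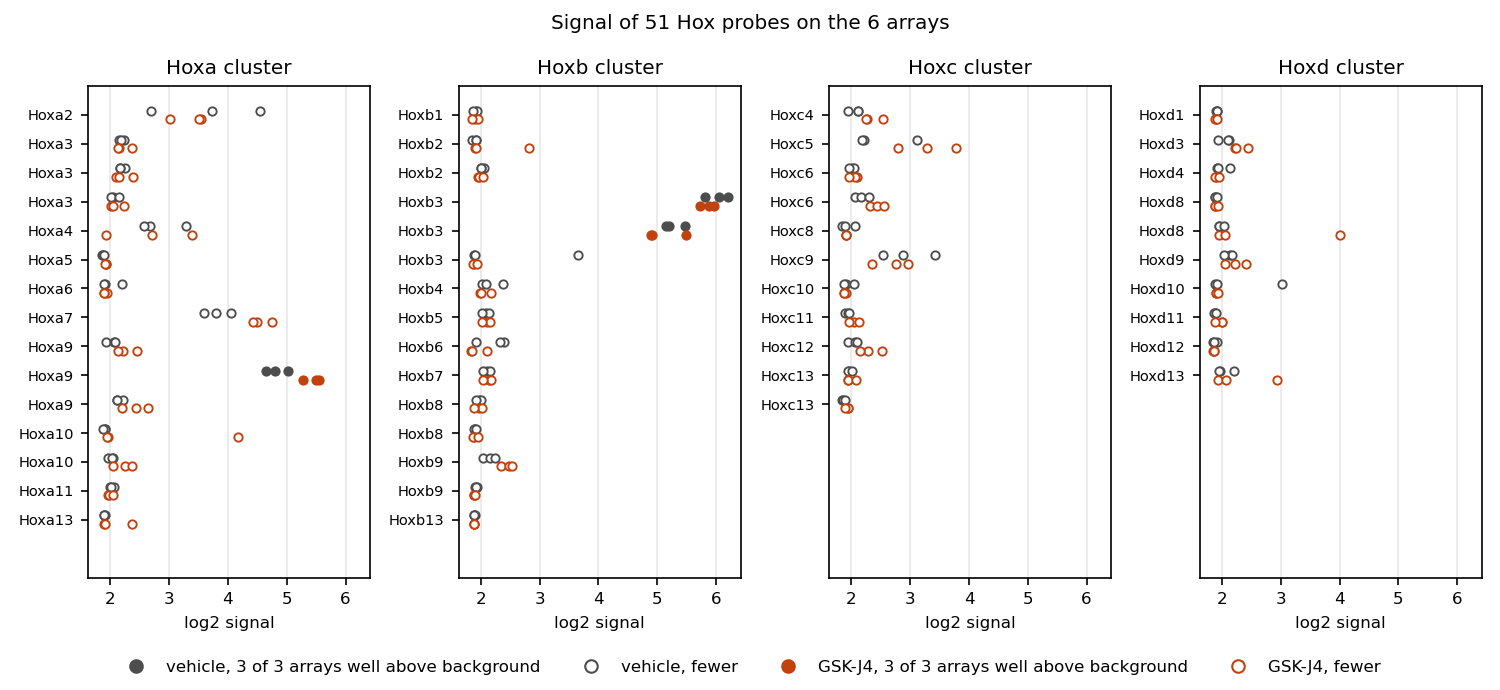
Deposited log2 signal (x axis) of each of the 51 Hox probes shown on the 3 vehicle arrays (grey) and 3 GSK-J4 arrays (orange), 1 panel per cluster and 1 row per probe in order of gene number. Filled points mark a probe well above background on all 3 arrays of that group, which holds for 1 Hoxa9 probe and 2 Hoxb3 probes. Signals of different probes are not on a common scale of abundance.

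The detected Hoxa9 probe had deposited log2 signals of 5.02, 4.81 and 4.65 on the vehicle arrays and 5.55, 5.49 and 5.28 on the GSK-J4 arrays. All GSK-J4 values were above all vehicle values. The means were 4.82 ± 0.18 (SD, n = 3) and 5.44 ± 0.14 (SD, n = 3), a log2 fold change of 0.62 with a standard error of 0.13 and an adjusted p of 0.032 by limma over 34443 probes. This was the only Hox probe called, 1 higher and 0 lower of the 3 that could be tested, while 8.39% of all tested probes were called higher and 8.42% lower at the same adjusted p of 0.05. With so few members tested, a count of 1 is not a result about the Hox genes as a set.

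The Hoxa9 value depended on the processing. Its probe has a GC content of 55%, and among tested probes with a GC content of 55% or more 23.5% were called higher and 1.37% lower, beside 11.6% and 4.79% of those from 45% to under 55%, and 3.64% and 11.9% of those under 45%. After correction of each array for probe GC content the log2 fold change was 0.35 and the adjusted p by limma was 0.13. The call was also lost when any array other than GSK-J4 replicate 3 was left out (adjusted p 0.065 to 0.11). Before any scaling its background-subtracted intensities were 45.6, 43.1 and 34.3 on the vehicle arrays and 33.1, 33.1 and 25.1 on the GSK-J4 arrays. The GSK-J4 arrays were dimmer as a whole, with a 75th percentile of intensity of 406 to 461 beside 787 to 916, so unscaled intensities give no direction, and scaled to that percentile the log2 fold change was 0.49 (adjusted p = 0.043 by limma). Each group was hybridised on a slide of its own and scanned in a scan of its own, so slide and treatment cannot be told apart for this or any other difference here.

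The other Hoxa9 probes carried signals of 1.93, 2.06 and 2.08 on the vehicle arrays and 2.22, 2.45 and 2.14 on the GSK-J4 arrays for A_66_P124343, and of 2.11, 2.21 and 2.12 against 2.44, 2.63 and 2.20 for A_66_P116392. On all 6 arrays both were surrogate values, which the scanner software writes when a spot cannot be told from its background. They give no measured level of Hoxa9 and no fold change.

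For Hoxb3, the junction probe had log2 signals of 5.81, 6.20 and 6.05 on the vehicle arrays and 5.88, 5.73 and 5.96 on the GSK-J4 arrays. The groups overlapped, and the log2 fold change was -0.16 with a standard error of 0.13 (adjusted p = 0.38 by limma). The other detected Hoxb3 probe read 5.14, 5.19 and 5.46 against 5.49, 4.91 and 4.90. These also overlapped, at a log2 fold change of -0.17 with a standard error of 0.19 (adjusted p = 0.56 by limma). The further Hoxb3 probe, not well above background anywhere, had a value above the noise on vehicle replicate 1 only, at 3.65, the other 5 arrays lying between 1.88 and 1.93. Neither Hoxb3 probe passed the adjusted threshold under any of the alternative settings in which it was tested. Over the 3 tested Hox probes, 2 of them of Hoxb3, the median log2 fold change was -0.16, beside 0.024 for all tested probes. With 1 probe per gene it was 0.23, so it gives no direction for the genes.

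**Figure D2:**
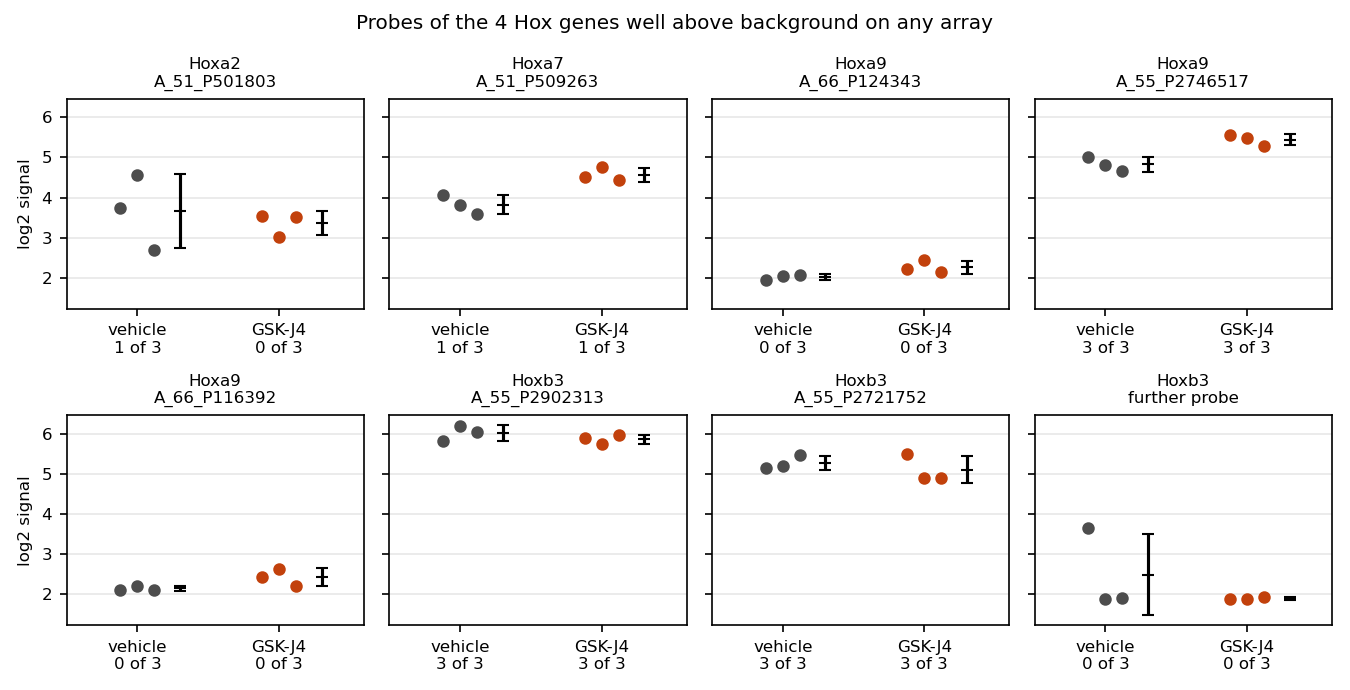
Deposited log2 signal (y axis) of every probe of the 4 Hox genes that were well above background on at least 1 array; points are single arrays, bars are mean ± SD of 3 arrays, and the labels under each group give the number of arrays well above background. The groups separate for Hoxa9 A_55_P2746517 and for Hoxa7, and overlap for the detected Hoxb3 probes and Hoxa2.

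Hoxa7 and Hoxa2, of the Hoxa cluster, were at the edge of detection and are named after their values were seen. Hoxa7, a gene of the middle of the cluster known for patterning the axial skeleton, was well above background on vehicle replicate 1 and GSK-J4 replicate 2. Its log2 signals were 4.06, 3.80 and 3.60 on the vehicle arrays and 4.50, 4.76 and 4.43 on the GSK-J4 arrays, so that the groups did not overlap (exact permutation p = 0.1, two-sided, the smallest possible). It did not enter the test because neither group had it well above background throughout. The lowest signal of any probe well above background was 3.79 to 3.90 on the vehicle arrays and 4.39 to 4.64 on the GSK-J4 arrays, so the Hoxa7 values lay close to that edge in both groups. Under a looser detection flag, by which a spot need only be positive and significant over its background, Hoxa7 was tested and called together with Hoxa9 (log2 fold change 0.74, adjusted p = 0.045 by limma).

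Hoxa2, which patterns the rhombomeres of the hindbrain and the neural crest of the branchial arches, was well above background on vehicle replicate 2 alone. Its signals were 3.74, 4.55 and 2.70 on the vehicle arrays and 3.55, 3.01 and 3.51 on the GSK-J4 arrays, and the groups overlapped. On the same array the cerebellar markers Pcp2, of Purkinje cells, and Gabra6, of granule cells, read 9.49 and 5.55, where the other 5 arrays read 5.95 to 7.24 and 1.87 to 2.19. The summed linear signal of the 16 hindbrain and spinal cord markers was 1717 to 3791 on the vehicle arrays and 1845 to 2171 on the GSK-J4 arrays, with 3791 on vehicle replicate 2 and 3662 on vehicle replicate 1. Of these 16 genes, 7 had a tested probe and none was called, a number too small to set against the 8.39% and 8.42% of all probes called, and Phox2a, Slc6a5, Slc6a2, Tlx3 and Atoh1 were flagged on no array. The part of such tissue in the Hoxa2 value was not tested.

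The remaining 47 probes carried mean signals of 1.87 to 2.90 over the 6 arrays, and 30 of them, which include every probe of 19 genes, held surrogate values on all 6 arrays. The Hoxa cluster had 16 probes for 11 genes, of which 3 were ever well above background, and the Hoxb cluster 15 probes for 10 genes, of which 2 were. None of the 11 probes for 9 Hoxc genes and none of the 10 probes for 9 Hoxd genes was ever flagged. The probes never flagged included those at both ends of the clusters. At the anterior end were Hoxd1 and Hoxb1, the latter known for a role in the early hindbrain. At the posterior end were Hoxa13, Hoxb13, Hoxc13 and Hoxd13, which act in the limb tips, genital tubercle and tail. An absent flag means only that these probes were not well above background at this signal, since the number of arrays and their background set the limit.

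By the looser flag, 22 of the 52 probes were positive on at least 1 array and 6 on all 6. Beside the 5 probes already named the sixth was Hoxc9, at 2.87, 2.54 and 3.41 on the vehicle arrays and 2.75, 2.34 and 2.96 on the GSK-J4 arrays. Hoxa4 was positive on 3 vehicle and 2 GSK-J4 arrays, and Hoxc5 on 1 vehicle and 3 GSK-J4 arrays. Hoxc5 read 2.22, 2.19 and 3.11 on the vehicle arrays and 3.28, 3.78 and 2.80 on the GSK-J4 arrays, with overlapping groups and an adjusted p of 0.20 by limma when tested under that flag. Several high readings came from 1 array alone, among them Hoxa10 (4.17 on GSK-J4 replicate 3), Hoxd8 (4.00 on GSK-J4 replicate 2) and Hoxd10 (3.03 on vehicle replicate 3).

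Over all 52 probes, the GSK-J4 values lay wholly above the vehicle values for 11 (21.2%) and wholly below for none, where 20.2% of all 56605 probes were wholly higher and 15.2% wholly lower. Of those 11, 8 held surrogate values on all arrays and have no measured order. The median difference over the 52 probes was 0.016 on the log2 scale, and it was 0.025 over all probes.

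The Hox probes were not unusual in base composition. Their GC content ran from 30% to 55% with a median of 40%, beside 41.7% for all probes. The 3 detected probes were among the 18 Hox probes with a GC content of 45% or more. None of the 34 Hox probes below 45% was detected on all arrays of a group, where 59.1% of all probes below 45% were. From 45% to under 55% it was 1 of 12 Hox probes beside 61.5% of all probes. At 55% or more it was 2 of 6 Hox probes beside 70.2% of all probes. A Hoxb2 probe, A_51_P257789, is placed on the minus strand, opposite to the cluster's other Hox probes, and was never well above background.

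The clusters held signal from other transcripts. Between the outermost Hox probes of the 4 clusters lay 34 probes with other names, of which 9 for 8 names passed the detection filter. This compares with 3 of the 52 Hox probes and with 34443 of all 56605 probes, a larger share than either. Of the 9, 4 lay in the Hoxa cluster, 4 in the Hoxb cluster, 1 in the Hoxd cluster and none in the Hoxc cluster. None of the 9 was called, with log2 fold changes from -0.35 to 0.49 and the lowest adjusted p at 0.058 by limma, beside the 8.39% and 8.42% of all probes called.

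Hoxb5os, a noncoding RNA read opposite to the Hoxb genes, had log2 signals of 5.98, 6.35 and 6.03 on the vehicle arrays and 6.67, 6.44 and 6.72 on the GSK-J4 arrays. The groups did not overlap, and the log2 fold change of 0.49 had a standard error of 0.13 and an adjusted p of 0.058 by limma. The GC content of this probe is 65%, and the other Hoxb5os probe was never flagged. An unnamed noncoding region between Hoxb13 and Hoxb9 (chr11:96111499-96126224, mm9) was read from both strands: its minus-strand probe gave 11.14, 11.18 and 11.17 on the vehicle arrays and 11.33, 11.51 and 11.49 on the GSK-J4 arrays, a log2 fold change of 0.28 with a standard error of 0.08 (adjusted p = 0.061 by limma). Its plus-strand probe gave 5.18, 5.70 and 5.41 against 5.37, 5.16 and 5.13, and those values overlapped.

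In the Hoxa cluster, Mira, a noncoding RNA next to Hoxa7, read 5.53, 6.57 and 5.69 on the vehicle arrays and 6.64, 6.76 and 5.78 on the GSK-J4 arrays, with overlapping groups (log2 fold change 0.46, standard error 0.37, adjusted p = 0.41 by limma). Hoxaas2, read opposite to Hoxa3, was well above background on 3 vehicle arrays and 1 GSK-J4 array, and its log2 fold change was -0.35 with an adjusted p of 0.14 by limma. Both probes of Hoxa11os, the antisense partner of Hoxa11, were well above background on all 6 arrays, at 4.80 to 5.32 and 4.57 to 5.17, while the Hoxa11 probe itself held surrogate values of 1.96 to 2.07. In the Hoxd cluster Haglr, next to Hoxd1, read 5.82, 5.83 and 5.75 on the vehicle arrays and 5.80, 5.46 and 6.00 on the GSK-J4 arrays, with a log2 fold change of -0.05. The probe for Hotair, a noncoding RNA of the Hoxc cluster known for its link to Polycomb, was never flagged. Of a list of 19 Hox cluster noncoding RNAs matched by symbol, which did not take in Mira or the Hotair probe as the array file spells it, 8 had probes, 4 passed the filter and 0 were called. That is too few to set against the 8.39% of all tested probes called higher and the 8.42% called lower.

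**Figure D3:**
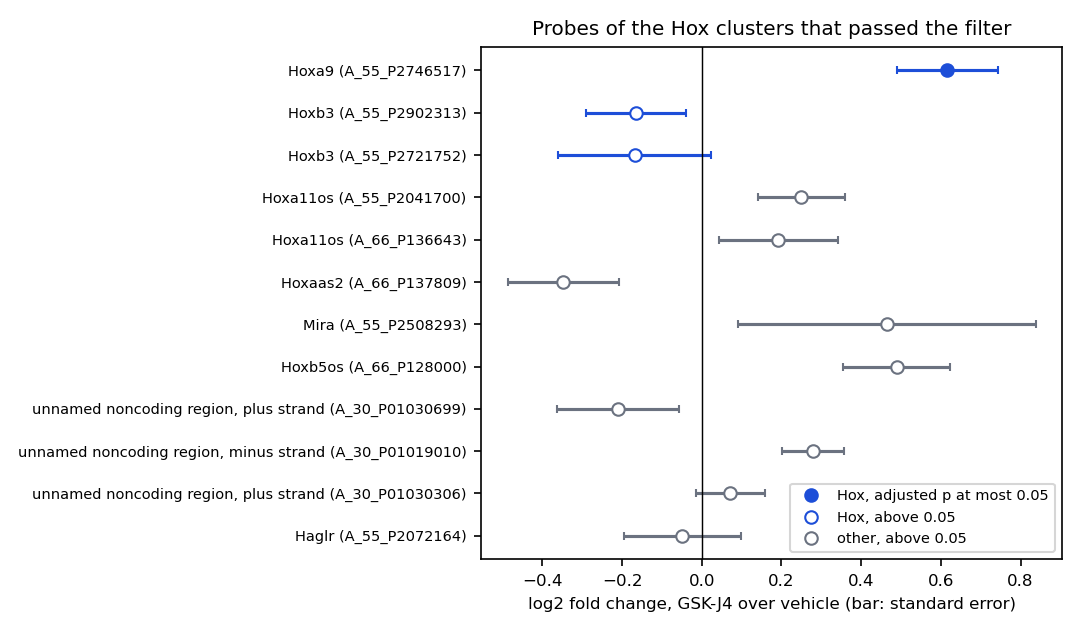
Log2 fold change of GSK-J4 over vehicle (x axis; bars are limma standard errors, 3 arrays per group) for the 12 probes within the Hox clusters that passed the detection filter. The Hoxa9 probe at 0.62 is the only one past an adjusted p of 0.05, and the 9 probes of other transcripts (grey) run from -0.35 to 0.49.

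The genes at the flanks of the clusters and the related ParaHox genes were next compared. Of 13 such genes 6 had a tested probe and none was called by its probe of highest mean signal, while 1 of their 12 tested probes was called higher and none lower, beside 8.39% and 8.42% of all probes. Evx2, a homeobox gene at the posterior flank of the Hoxd cluster, was well above background on all 6 arrays with both of its probes. The probe of higher signal read 7.45, 7.79 and 7.84 on the vehicle arrays and 8.16, 8.11 and 8.30 on the GSK-J4 arrays and did not pass the test (log2 fold change 0.49, adjusted p = 0.052 by limma). The other read 4.33, 4.59 and 4.64 on the vehicle arrays and 5.95, 5.62 and 6.18 on the GSK-J4 arrays and was called (log2 fold change 1.40, standard error 0.17, adjusted p = 0.015 by limma). These probes have GC contents of 83.3% and 66.7%. Among tested probes with a GC content of 55% or more, 23.5% were called higher and 1.37% lower. No GC-corrected value is given here for Evx2. Cdx1, Cdx2, Evx1, Gsx2, Mnx1 and Pdx1 were flagged on no array.

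Hox proteins bind DNA together with TALE homeodomain cofactors of the Pbx, Meis and Pknox families. All 9 cofactor genes were detected, in contrast to the Hox genes, and 24 of their 30 probes (80%) passed the filter. By the probe of highest mean signal 1 gene, Pbx4, was higher and none lower. Of the 24 tested probes 4 were called higher and 2 lower, beside 8.39% and 8.42% of all probes. Pbx4 read 6.41, 6.47 and 6.56 on the vehicle arrays and 7.26, 6.89 and 7.44 on the GSK-J4 arrays, a log2 fold change of 0.72 with a standard error of 0.15 (adjusted p = 0.033 by limma). The probe has a GC content of 51.7%, and the call was lost in 5 of 15 alternatives, among them GC correction (0.47, adjusted p = 0.086 by limma), no filter on dim probes and the replicate number as a block, and without any array other than GSK-J4 replicate 2.

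The Polycomb and H3k27 demethylase genes were likewise broadly present: all 24 genes had a tested probe, and 54 of 61 probes passed. By the probe of highest mean signal 2 genes were higher and none lower, and over the 54 tested probes 3 were called higher and 5 lower. Both shares of probes lay near the 8.39% and 8.42% of all probes, so the counts are not a result about these genes as a set. Ezh2, the methyltransferase of Polycomb repressive complex 2, read 8.15, 7.90 and 7.85 on the vehicle arrays and 8.51, 8.49 and 8.54 on the GSK-J4 arrays (log2 fold change 0.55, standard error 0.10, adjusted p = 0.026 by limma). That call was lost when any 1 of the 6 arrays was left out (adjusted p 0.052 to 0.095 by limma) and with the replicate number as a block (0.085). Its other 4 probes had log2 fold changes from -0.02 to 0.49 and none passed. Phf1, a Polycomb-like subunit, had a log2 fold change of 0.50 (adjusted p = 0.036 by limma) from a probe with a GC content of 55%, which after GC correction was 0.24 (adjusted p = 0.17 by limma). The Phf1 call was lost in 8 of 15 alternatives and without any array other than GSK-J4 replicate 2. The drug's targets were not called by that probe: Kdm6a had a log2 fold change of 0.05 (adjusted p = 0.66 by limma) and Kdm6b of 0.25 (adjusted p = 0.15 by limma). Of 13 trithorax and MLL complex genes 10 had probes, all 10 passed the filter and none was called by its probe of highest mean signal, while 2 of their 18 tested probes were called higher and none lower.

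**Figure D4:**
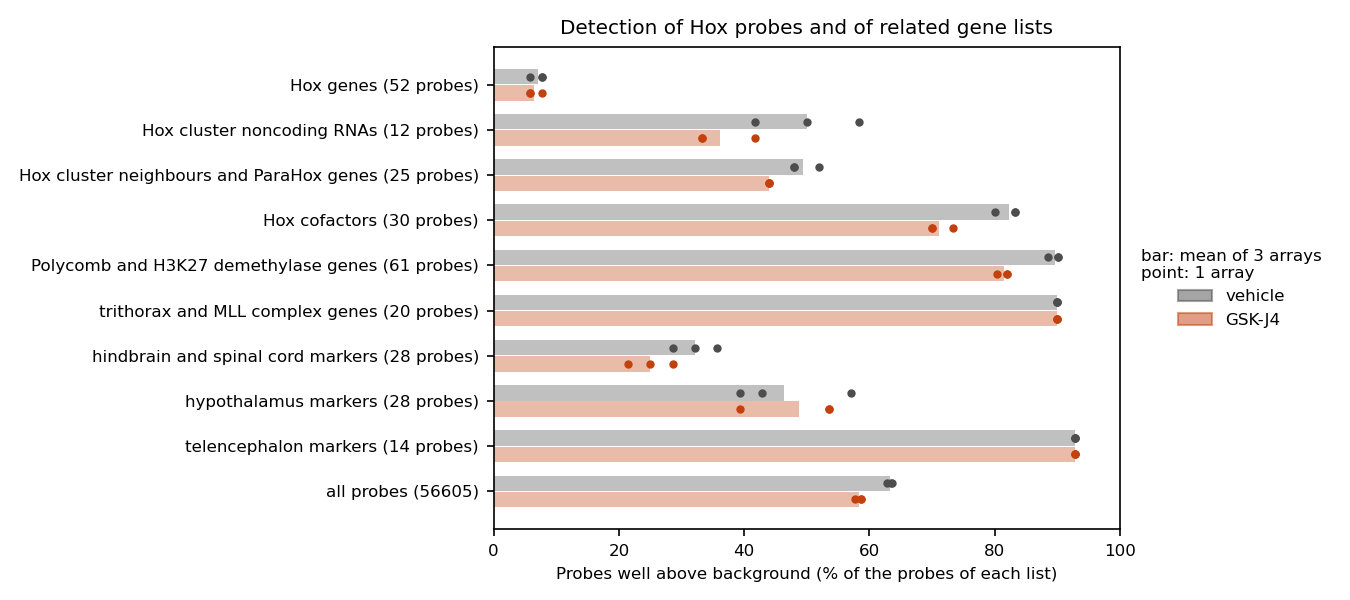
Share of probes well above background (x axis, percent) for the Hox genes, for related gene lists and for all probes; bars are means of 3 arrays per group and points are single arrays. Hox probes lie at 5.77% to 7.69% on every array, while the cofactor list lies at 70% or more and the Polycomb list at 80.3% or more.

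The labelled tissue was checked against its markers. Of 19 hypothalamus markers 11 had a tested probe, among them Pomc, Npy, Crh and Sst, and 3 were called, all higher: Pomc at a log2 fold change of 0.85, Npy at 0.42 and Rax at 1.09. All 3 calls were lost when any vehicle array was left out (adjusted p 0.072 to 0.11 by limma) and with the replicate number as a block. The Rax call was also lost with a normexp background correction (0.35, adjusted p = 0.069 by limma). Over all tested probes 8.39% were called higher and 8.42% lower. Each marker list in this paragraph is too small for its count to be set against those shares. Avp, Pmch and Trh, which mark hypothalamic neuron types, were well above background only on vehicle replicate 1 and GSK-J4 replicates 1 and 3, and the developmental regulators Sim1, Otp and Hmx3 on no array. Of 12 telencephalon markers on the array 11 had a tested probe, with Tbr1, Emx2 and Neurod6 well above background on all 6 arrays, and Tbr1 is known as a transcription factor of the cerebral cortex. Of the telencephalon genes, Emx1 was called higher at 0.53 and Neurod6 lower at -0.47. The summed linear signal of the telencephalon list was 37328 to 38078 on the vehicle arrays and 32575 to 36275 on the GSK-J4 arrays, and that of the hypothalamus list was 40206 to 46399 and 46332 to 47285. Of markers of other tissue, 1 of 10 pituitary genes and 7 of 8 choroid plexus genes had a tested probe, as had all 9 endothelial, 9 meningeal and 10 blood cell genes, and of the pituitary, choroid plexus, endothelial, meningeal and blood genes only Ptprc of the blood list was called (lower, -0.47), by the probe of highest mean signal. With GC correction Ptprc was at -0.31 and Npy at 0.19, and neither was called, nor were Emx1 and Neurod6. The summed linear signal of the choroid plexus list was 3088 and 3231 on vehicle replicates 2 and 3 and 2666 to 11953 on the GSK-J4 arrays, but 110221 on vehicle replicate 1, the array on which Hoxa7, the detected Hoxa9 probe and the undetected Hoxb3 probe read highest in their group and both detected Hoxb3 probes lowest. Of the telencephalon probes 92.9% passed the detection filter and of the hypothalamus probes 42.9%, so the arrays did not read hypothalamus markers alone. No other tissue was on the arrays for comparison. The Hox values are those of the tissue as labelled, and the part of other brain regions or choroid plexus in them was not tested.

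Promoter sequence was available for some of the genes in the RefSeq windows of GRCm38.p6, which run from 250 bases before a gene's start to 50 after it. Of the 39 Hox genes 22 matched, with 24 windows. Dense CpG dinucleotides are a known feature of Polycomb-bound promoters. The Hox windows held a median of 14.5 CpG, between 4 and 45, beside 7 for all 32851 windows, and the ratio of observed to expected CpG had a median of 0.63 beside 0.38. At least 15 CpG were found in 50% of the Hox windows and in 34.6% of all windows. The pair below shows the range within the Hoxa cluster, with CpG in capitals, over the 250 bases before the start on the minus strand: the detected gene Hoxa9 (chr6:52227371-52227620, with 3 CpG in the printed stretch) and the undetected Hoxa13 (chr6:52260881-52261130, with 35). A low count was not particular to a detected gene: the whole Hoxa9 window held 4 CpG, as did those of the undetected Hoxd4 and 1 of Hoxd11, Hoxd8 held 6, and no window matched Hoxb3. Histone marks and DNA methylation were not measured on these arrays.
Hoxa9: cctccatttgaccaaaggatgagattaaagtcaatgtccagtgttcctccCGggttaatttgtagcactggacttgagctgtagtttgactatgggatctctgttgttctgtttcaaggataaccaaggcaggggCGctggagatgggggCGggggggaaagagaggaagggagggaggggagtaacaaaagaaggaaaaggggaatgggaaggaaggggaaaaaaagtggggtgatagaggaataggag
Hoxa13: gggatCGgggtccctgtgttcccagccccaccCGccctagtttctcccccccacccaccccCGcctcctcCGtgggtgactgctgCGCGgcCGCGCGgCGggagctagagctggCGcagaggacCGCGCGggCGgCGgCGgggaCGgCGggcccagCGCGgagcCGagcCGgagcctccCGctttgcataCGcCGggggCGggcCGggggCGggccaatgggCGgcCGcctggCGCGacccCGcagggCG

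**Figure D5:**
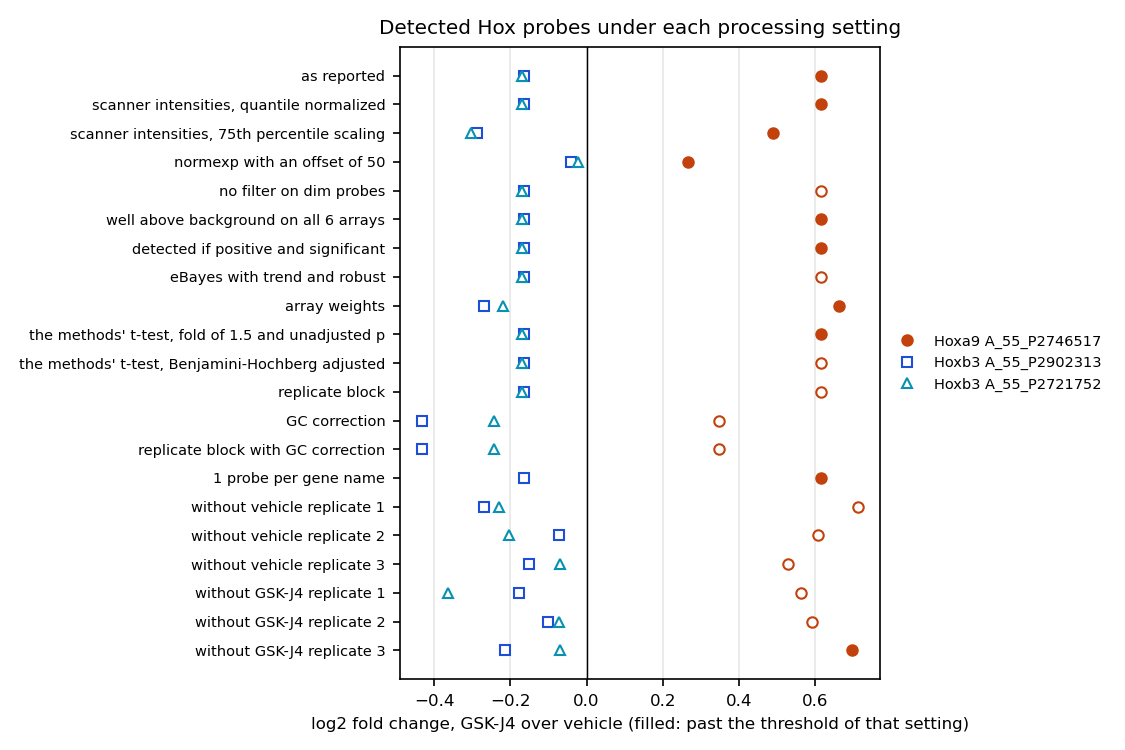
Log2 fold change of GSK-J4 over vehicle (x axis) of the 3 Hox probes well above background on all 6 arrays, under the reported settings and each alternative (rows). Filled points passed that setting's threshold: the Hoxa9 probe stays between 0.27 and 0.71 and passes in some settings only, and the Hoxb3 probes stay below 0 and pass in none.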

How the data were processed

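Hypothalamic RNA of 6 DIO mice was hybridised to 1-colour Agilent mouse arrays, 1 mouse per array, and read with Agilent Feature Extraction 10.7.1.1. The deposited scanner files give each spot's background-subtracted intensity, its detection flags and mm9 coordinates. The deposited series matrix gives log2 signals that the authors quantile normalised. Its columns ranked each array's probes as the scanner intensities did (Spearman correlation 1 after rounding, Pearson correlation 0.9992 to 0.9996). They shared a median of 5.74, so each array was scaled but genes were not centred. All values in the report are from this log2 table unless intensities are named.

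Control spots and outlier flags were left out and spots of a probe averaged. To be tested, a probe needed the well-above-background flag throughout 1 group or both, as 34443 of 56605 had. GSK-J4 was compared with vehicle per probe in limma 3.58.1 (R 4.3.3) with no covariate and Benjamini-Hochberg adjustment over all kept probes, after the code was tested on simulated data. Signal over background was lower on the GSK-J4 arrays, where 57.7% to 58.7% of probes were well above background beside 62.8% to 63.6%. Gene names are those of the array file, and all 39 Hox symbols are in RefSeq. A list's gene is described by its kept probe of highest mean signal.

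The Hox genes named by rule are those with a probe well above background throughout a group, Hoxa9 and Hoxb3. All other Hox genes were named outside that rule, with their values known. Of each list at most the 5 largest changes past an adjusted p of 0.05 were eligible, beside Kdm6a, Kdm6b and Ezh2, and other genes are named where a value turns on them. Members, lists and tests were chosen with earlier results of these data known. Some items are not reported here.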

Additional observations from a re-analysis of the deposited data

How the results depend on the processing

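The detected Hoxb3 probes kept their direction and stayed short of the threshold in each alternative run for them. The count of Hox probes called, 1 as reported, fell to 0 with no filter on dim probes, with a trended and robust variance, with the methods' t-test after Benjamini-Hochberg adjustment, with the replicate block, with GC correction and with the replicate block with GC correction, where 1 to 6 Hox probes had an unadjusted p under 0.05 (the 6 being of 52 with no filter, beside 14833 of all 56605). It was 2 of 8 with the looser detection flag, which called 4353 of 41708 probes in all, and 0 to 1 when each array was left out. In all of these Hoxa9 kept its direction (log2 fold change 0.27 to 0.71, adjusted p 0.021 to 0.13). The count of all probes called, 5788 as reported (2889 higher, 2899 lower), was 8674 with 75th percentile scaling (5037 higher, 3637 lower), 3781 with no filter, 3642 by the methods' t-test at a fold of 1.5 and an unadjusted p of 0.05, 3315 by that test after adjustment, 3605 with GC correction (1485 higher, 2120 lower), 3711 with 1 probe per gene, and 11 to 4225 when each array was left out (11 to 25 for the vehicle arrays). With the replicate block, with or without GC correction, limma called 0, with 9533 (with it) and 11070 (without it) probes at an unadjusted p under 0.05. Replicate numbers did not pair the arrays: same-numbered arrays had correlations of 0.01, 0.03 and 0.08 between their deviations from the group means. The median log2 fold change of the Hox probes, -0.16 as reported, was 0.016 over all 52 probes with no filter, 0.23 with 1 probe per gene and -0.23 to -0.07 when each array was left out. Detection by the looser flag gave 8 Hox probes, detection on at least 1 array gave 5, and leaving out each array gave 3. A fold of 1.5 with limma's unadjusted p was added after seeing the data and called 1 Hox probe. The slide as a block was not run because no slide holds both groups. Signal over background limits all values near the detection edge, and no weight can be put on an order among surrogate values.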
